A study of Mus musculus with 4 samples.

Results

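Dnmt1, Dnmt3a, Dnmt3b, Uhrf1, Tet1, Tet2, Tet3, Mbd2 and Tdg write, copy, read, oxidise or remove DNA methylation. These 9 genes were chosen by name, with earlier results of these data known, among 50600 genes counted in 4 mouse RNA libraries. The libraries are biological replicates 1 to 4 of primary cells from the strain C57BL/6NJ and share the single label regulatory T cell. No treatment is named in the labels, age is given as unknown and sex as not collected, and all libraries carry the same donor record. The column name inside each file adds the text "activated" with a mark of 00h. Each replicate has its own biosample, and whether these came from separate animals is not stated, so the spread between libraries may be technical in part. With 1 group only, comparisons are between genes of the same library.

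The base that carries the mark is cytosine next to guanine (CpG). Dnmt3a and Dnmt3b place methyl groups on unmodified DNA, whereas Dnmt1 copies them onto the new strand after replication, at hemimethylated sites that Uhrf1 recognises. The Tet enzymes oxidise methylcytosine, and Tdg, a DNA glycosylase, cuts out the more oxidised forms so that base excision repair can restore plain cytosine. Mbd2 binds methylated CpG and brings in the NuRD complex, which remodels and deacetylates chromatin. In regulatory T cells, loss of methylation at an enhancer within Foxp3 is known to accompany stable expression of that gene, and Tet enzymes take part in it. DNA methylation itself was not measured in these libraries.

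Total counts ran from 23000465 to 62090744 per library, with replicates 2 and 4 deeper than replicates 1 and 3. The 6 T cell markers (Cd3d, Cd3e, Cd3g, Cd4, Trac and Lck) ranged from 431 ± 16.1 TPM (a count scaled by exon length, then by the sum over the library) for Cd3g to 3435 ± 137 TPM for Trac (SD, n = 4). All 6 regulatory T cell markers reached 1 TPM in every library, namely Ikzf2, Il2ra, Ctla4, Foxp3, Ikzf4 and Tnfrsf18, and their summed level was 132 to 148 TPM. Tnfrsf18 stood at 107 ± 3.8 TPM, and the other 5 had means from 1.34 TPM (Ikzf2) to 9.22 TPM (Ikzf4), with 7.77 TPM for Ctla4. The median over the 6 was 8.20 ± 0.955 TPM, beside 33.2 ± 0.685 TPM over protein-coding genes that reached 1 TPM in every library, and no other T cell population was analysed here to set them against. Foxp3, the defining factor, stood at 8.08, 8.18, 9.47 and 7.39 TPM in replicates 1 to 4, and Il2ra, a receptor subunit for interleukin 2, at 6.22, 3.63, 9.13 and 3.11 TPM. The 5 B cell markers (Cd79a, Cd79b, Ms4a1, Pax5 and Igkc) summed to 94.1, 57.6, 57.7 and 20.7 TPM in the same order, with 3 of 5 detected, that is, at 1 TPM or more in every library. All 5 of them and Il2ra, and no other marker tested, varied between libraries in the edgeR test described below (adjusted p under 0.05). Of 6 myeloid markers 3 were detected, with a sum of 14.6 to 17.3 TPM. Of 5 red cell and stromal markers only Pecam1 was (155 ± 14.7 TPM), which T cells also express, and the sum was 144 to 174 TPM. No marker of these lists was at 0 in every library, and Cd8a stood at 0.794 ± 0.288 TPM beside 39.95 ± 2.55 TPM for Cd8b1. In bulk RNA, fewer cells of a type and less RNA per cell cannot be told apart.

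Sequence bears on how well 3 of the 9 genes could be counted. The counting command has no option for fragments that align to several places, which its default leaves out, so a gene with a near-identical copy can lose fragments. Of 50-base words sampled every 10 bases from the transcripts of Tdg, 57.2% also occurred in transcripts of other genes. The share was 18.9% for Uhrf1 and 10.5% for Dnmt3b, and at most 0.316% (Dnmt3a) in the other members. In the coding sequence of Tdg, 78.9% of all 50-base windows were found in its processed pseudogenes Tdg-ps, Gm5597 and Gm9855. The closest, Gm9855 (chromosome 10, 42054113 to 42055306, minus strand, mm10), shares an unbroken run of 756 coding bases with Tdg. The copies are shown with the first base that differs after the longest shared run, since only such bases let a read be placed; capitals mark the differences, over 60 bases of coding strand from GENCODE M21 transcripts, 5′ to 3′:
Tdg: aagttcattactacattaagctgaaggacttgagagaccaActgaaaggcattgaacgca
Gm9855: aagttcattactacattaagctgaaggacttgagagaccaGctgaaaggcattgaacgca
Uhrf1: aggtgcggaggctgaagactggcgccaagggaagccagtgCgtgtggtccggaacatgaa
Gm5648: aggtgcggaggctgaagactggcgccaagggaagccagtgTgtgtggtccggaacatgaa
Dnmt3b: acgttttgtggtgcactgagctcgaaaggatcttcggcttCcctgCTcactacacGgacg
Dnmt3c: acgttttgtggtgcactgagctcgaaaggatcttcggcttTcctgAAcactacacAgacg

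Gm5648 is a processed pseudogene of Uhrf1 (chromosome X, 121334988 to 121336574, minus strand), with a longest shared run of 194 bases, and 29.0% of the coding windows of Uhrf1 occurred in it or in Gm15953. Dnmt3c, a de novo methyltransferase gene of the mouse male germline, lies near Dnmt3b (chromosome 2, 153696652 to 153729907, plus strand) and shares 19.2% of the coding windows of Dnmt3b, with a longest run of 287 bases. The copies themselves had almost no counted fragments. Over the 4 libraries, Tdg-ps had 8 counts, Gm5597 had 6, Gm9855 had 5 and Gm5648 had 1, while Gm15953 and Dnmt3c had 0. Because of the shared sequence, the levels of Tdg, Uhrf1 and Dnmt3b given below may be too low. The amount depends on the fragment length and was not tested. The low counts of the copies do not show such a loss, since copies that are not transcribed would have them too. None of the 9 members shared exon bases with another gene on its own strand.

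**Figure D1:**
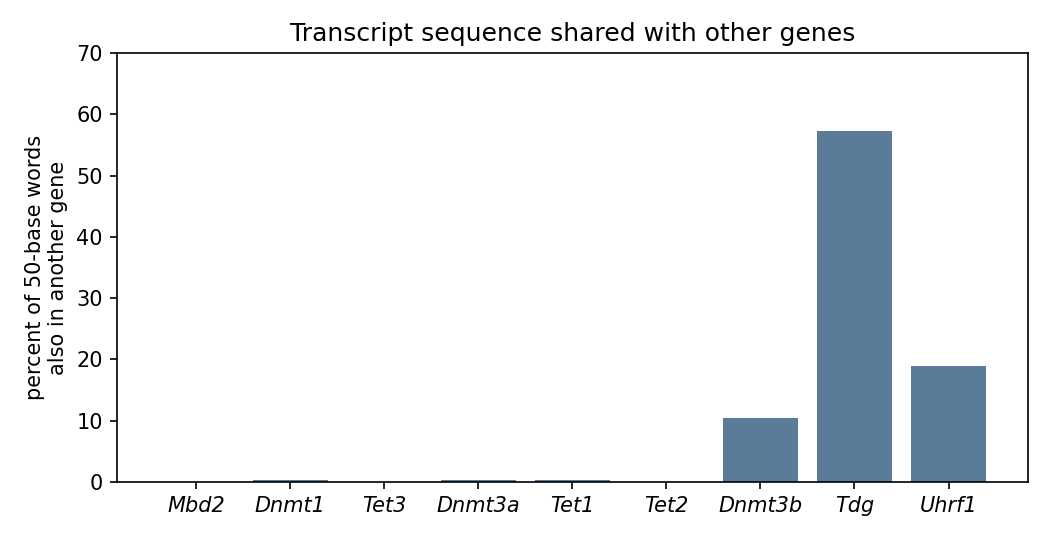
Percent of sampled 50-base transcript words that also occur in transcripts of another gene (vertical axis), for each of the 9 genes in order of level. Tdg stands at 57.2%, Uhrf1 at 18.9% and Dnmt3b at 10.5%, and the other genes at or near 0.

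All 9 genes were expressed, at levels that fell into 3 tiers. Mbd2, Dnmt1 and Tet3 exceeded 80 TPM in every library, Dnmt3a lay alone near 28 TPM, and Tet1, Tet2, Dnmt3b, Tdg and Uhrf1 stayed under 15 TPM. Each of the 9 reached 1 TPM in all 4 libraries, which 45.7% of 21764 protein-coding genes and 23.1% of all genes did. The highest mean was 20.1-fold above the lowest. The median of all genes that reached 1 TPM in every library was 27.7 TPM, and 4 of the 9 members lay above it.

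**Figure D2:**
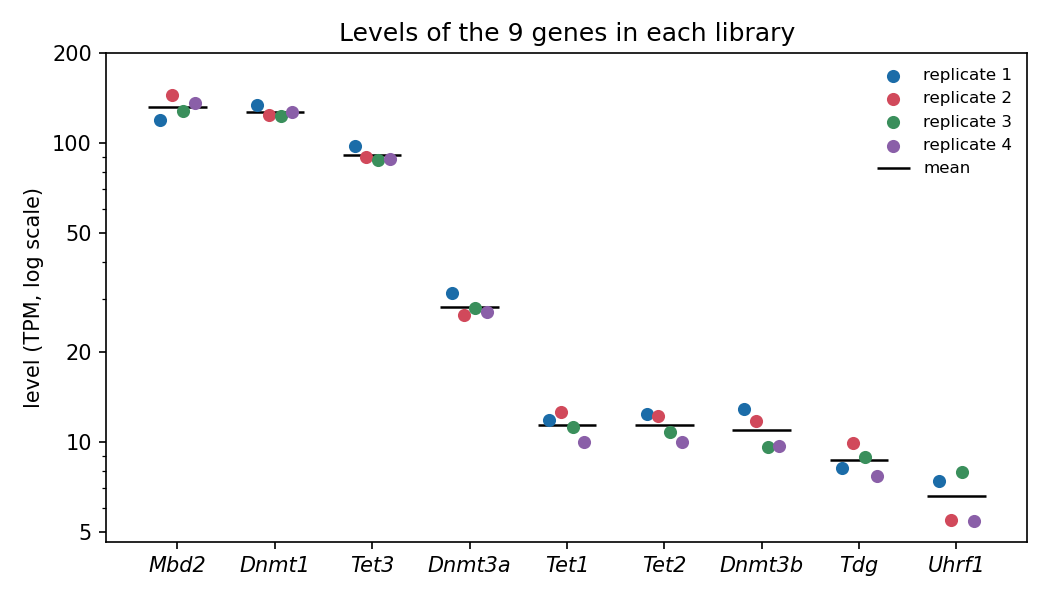
Level of each gene in TPM (vertical axis, log scale) in replicates 1 to 4 (points) with the mean over the 4 libraries (line). Mbd2, Dnmt1 and Tet3 form the upper tier, Dnmt3a stands alone, and the other 5 genes lie between 5.45 and 12.9 TPM.

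Dnmt1, the maintenance methyltransferase, was the most abundant of the methyltransferases. It stood at 134, 124, 123 and 127 TPM in replicates 1 to 4, a mean of 126.9 ± 5.23 TPM (SD, n = 4), on 6055 to 16730 counts. Its highest library exceeded its lowest by only 1.09-fold, the narrowest spread among the 9 genes. Dnmt1 (ENSMUSG00000004099.16) lies on chromosome 9, 20907209 to 20959888, minus strand, with 7377 exon bases in mm10.

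Uhrf1, the partner that guides Dnmt1 to hemimethylated sites, was the lowest of the 9 genes. It stood at 7.40, 5.48, 7.95 and 5.45 TPM, a mean of 6.57 ± 1.30 TPM, on 226 to 416 counts. Replicates 1 and 3 were high and replicates 2 and 4 low, without overlap. The log2 ratio of Dnmt1 to Uhrf1 was 4.16, 4.47, 3.93 and 4.51 in replicates 1 to 4, so Dnmt1 was 19.3-fold higher on average. Dnmt1 was higher in all 4. Flipping the signs of the 4 ratios gave a two-sided exact p of 0.125, the lowest value this number of libraries can reach, and 0.167 after Benjamini-Hochberg adjustment over 8 fixed pairs. With exon length reduced by the share of words found in copies, Uhrf1 stood at 8.10 TPM. Its related gene Uhrf2, which also binds modified cytosine, stood higher at 33.9 ± 2.48 TPM. Uhrf1 (ENSMUSG00000001228.14) lies on chromosome 17, 56303321 to 56323486, plus strand, with 4259 exon bases.

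Dnmt3a, a de novo methyltransferase, stood at 31.6, 26.6, 27.95 and 27.2 TPM, a mean of 28.3 ± 2.25 TPM. Replicate 1 was highest, and both deeper libraries lay below both shallower ones. Dnmt3b, the other de novo enzyme, stood at 12.9, 11.7, 9.62 and 9.66 TPM, a mean of 10.98 ± 1.62 TPM. Replicate 1 was again the highest. The log2 ratio of Dnmt3a to Dnmt3b was 1.28, 1.17, 1.53 and 1.49, a mean 2.58-fold excess of Dnmt3a with its sign in 4 of 4 libraries (exact p 0.125, adjusted 0.167). Dnmt1 exceeded Dnmt3a 4.47-fold in mean ratio, by a log2 ratio of 2.16 ± 0.06, likewise in 4 of 4 libraries (exact p 0.125, adjusted 0.167). The size of both ratios depends on exon length. In CPM, a count scaled to the library total with no length correction, the log2 ratio of Dnmt1 to Dnmt3a was 0.99 ± 0.06. That of Dnmt3a to Dnmt3b was 3.07 ± 0.17.

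Of the summed TPM of the 3 methyltransferases, Dnmt1 took 76.4% ± 0.952, Dnmt3a 17.0% ± 0.599 and Dnmt3b 6.59% ± 0.736 (SD, n = 4). The share of Dnmt1 ran from 75.1% to 77.4% over the libraries. Like the ratios, these shares rest on the exon lengths used for TPM. Dnmt3a (ENSMUSG00000020661.15) lies on chromosome 12, 3806007 to 3914443, plus strand, and Dnmt3b (ENSMUSG00000027478.15) on chromosome 2, 153649450 to 153687730, plus strand.

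Among the Tet dioxygenases, Tet3 was the most abundant. It stood at 97.6, 89.95, 87.6 and 88.4 TPM, a mean of 90.9 ± 4.59 TPM. With 9756 to 26433 counts per library, Tet3 had more fragments than any other member. Its exons span 16695 bases, close to those of Tet2 (16870) and Dnmt3a (16642). Tet1 stood at 11.8, 12.6, 11.2 and 9.99 TPM, a mean of 11.4 ± 1.11 TPM, and replicate 4 was its lowest library. Tet2 stood at 12.4, 12.2, 10.8 and 10.004 TPM, a mean of 11.3 ± 1.16 TPM, and replicate 4 was again lowest.

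Tet3 was 7.97-fold above Tet2, by a log2 ratio of 2.99 ± 0.11, and 7.93-fold above Tet1, by 2.99 ± 0.13. Both signs held in 4 of 4 libraries (exact p 0.125 and adjusted 0.167 for each). Tet1 and Tet2 did not separate. The log2 ratio of Tet2 to Tet1 was -0.01 ± 0.06, its sign turned between libraries (2 of 4 each way), and the exact p was 1. Tet3 held 79.997% ± 1.30 of the summed Tet TPM, Tet1 10.03% ± 0.757 and Tet2 9.97% ± 0.597. The 3 Tet genes summed to 113.6 ± 6.14 TPM, beside 166 ± 8.55 TPM for the 3 methyltransferases. Tet1 (ENSMUSG00000047146.16) lies on chromosome 10, 62804570 to 62908996, Tet2 (ENSMUSG00000040943.12) on chromosome 3, 133463679 to 133545139, and Tet3 (ENSMUSG00000034832.15) on chromosome 6, 83362373 to 83459084, all on the minus strand.

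**Figure D3:**
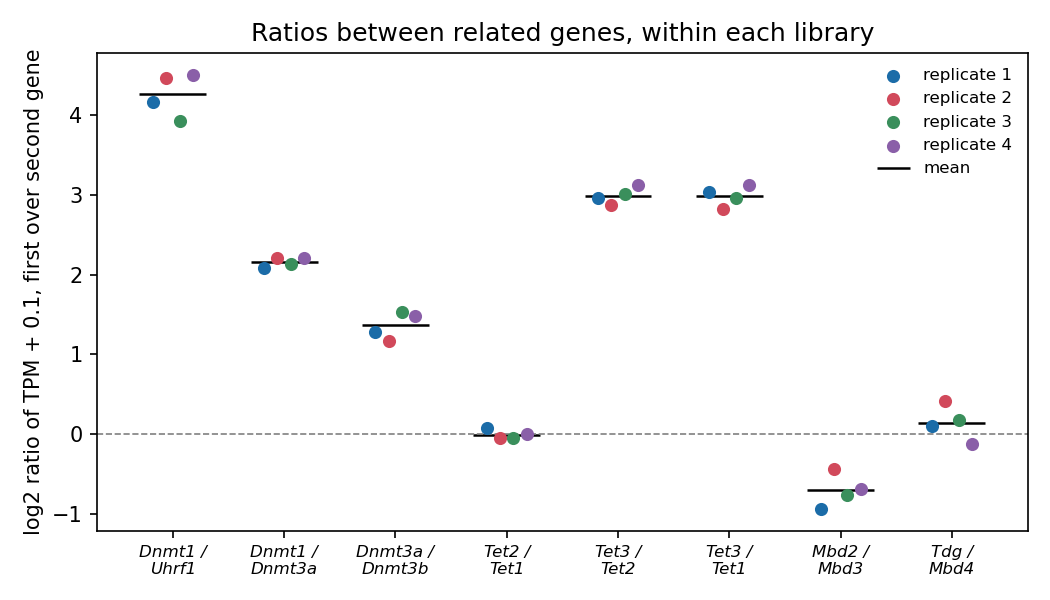
Log2 ratio of TPM + 0.1 (vertical axis) for 8 gene pairs within each of the 4 libraries (points) with the mean (line); the dashed line marks equal levels. Tet2 / Tet1 and Tdg / Mbd4 straddle the dashed line, and the other 6 pairs keep 1 sign in every library.

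Mbd2, the methyl-CpG reader, had the highest mean of the 9 genes. It stood at 120, 145, 128 and 136 TPM in replicates 1 to 4, a mean of 132 ± 10.8 TPM. Both deeper libraries, replicates 2 and 4, lay above both shallower ones. Mbd3, a relative that occupies the same place in the NuRD complex, was higher still at 216 ± 13.7 TPM. The log2 ratio of Mbd2 to Mbd3 was -0.71 ± 0.21, with Mbd3 higher in 4 of 4 libraries (exact p 0.125, adjusted 0.167). In CPM, with no length correction, the ratio was -0.016 ± 0.21 (exact p 1).

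Tdg, the glycosylase, stood at 8.17, 9.91, 8.92 and 7.68 TPM, a mean of 8.67 ± 0.968 TPM, on 319 to 933 counts. The 57.2% of its words also found in other genes covers Glt8d2 and AC122846.1 besides the pseudogenes. Words were matched on either strand, and 367 exon bases of Tdg (6.83%) overlap a gene on the other strand. Stranded counting can tell such bases apart, so the share may overstate the loss. With exon length reduced by the whole 57.2%, an alternative added after the data were seen, the level of Tdg would be 20.3 TPM, which may be too high. On that scale Tdg lies above Dnmt3b, with a log2 ratio of Dnmt3b to Tdg of -0.72 in place of 0.33. Mbd4, another glycosylase that acts on mispaired thymine, stood at 7.83 ± 0.426 TPM. The log2 ratio of Tdg to Mbd4 was 0.14 ± 0.22, positive in 3 of 4 libraries (exact p 0.375, adjusted 0.429). With the reduced length of Tdg it was 1.36 ± 0.22, positive in 4 of 4 (exact p 0.125). Tdg (ENSMUSG00000034674.18) lies on chromosome 10, 82629828 to 82650799, plus strand.

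In the order of mean TPM, from Mbd2 through Dnmt1, Tet3, Dnmt3a, Tet1, Tet2, Dnmt3b and Tdg to Uhrf1, 5 of the 8 neighbouring pairs kept 1 sign in all libraries. The smallest p is the same here, so no step in the order can pass 0.05, and the adjusted exact p of these 5 steps was 0.2. Mbd2 and Dnmt1 did not differ beyond their spread, with a log2 ratio of 0.06 ± 0.16 and an exact p of 0.625. Tet1, Tet2 and Dnmt3b also could not be ranked, since each ratio among them changed sign between libraries. The exact p was 1 for Tet1 against Tet2 and 0.375 for Tet2 against Dnmt3b. Of all 36 pairs among the 9 genes, 32 kept 1 sign in the 4 libraries. In CPM, a count scaled to the library total with no length correction, Tet3 came first, ahead of Dnmt1, Dnmt3a and Mbd2. The signs of Mbd2 against Dnmt1 and of Tet1 against Tet2 also turned when replicate 2 was left out, to -0.0023 and -0.0052, and the latter without replicate 3, to -0.0082.

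None of the 9 genes was called variable between libraries by edgeR, as was true of most genes tested. The test compared the residual deviance of an intercept-only fit at the trended dispersion with chi-square on 3 degrees of freedom, and 1.13% of 12554 genes were called at an adjusted p of 0.05. Among the members 0 of 9 were called, and 0 had an unadjusted p under 0.05, a level that 5.23% of all genes reached. With only 9 genes, these counts do not set the members apart from all genes. The dispersion trend was fitted to these same libraries, so a call marks variation beyond that of genes of like count. No call therefore does not mean a stable level. With the dispersion trend of DESeq2 the counts were also 0 and 0. Uhrf1 came nearest, with an unadjusted edgeR p of 0.0682 and an adjusted p of 1.00. Its coefficient of variation was 19.7%, against 5.84% from counting error alone. The other members had coefficients of variation from 4.12% for Dnmt1 to 14.8% for Dnmt3b, beside a median of 7.43% over genes that reached 1 TPM in every library.

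**Figure D4:**
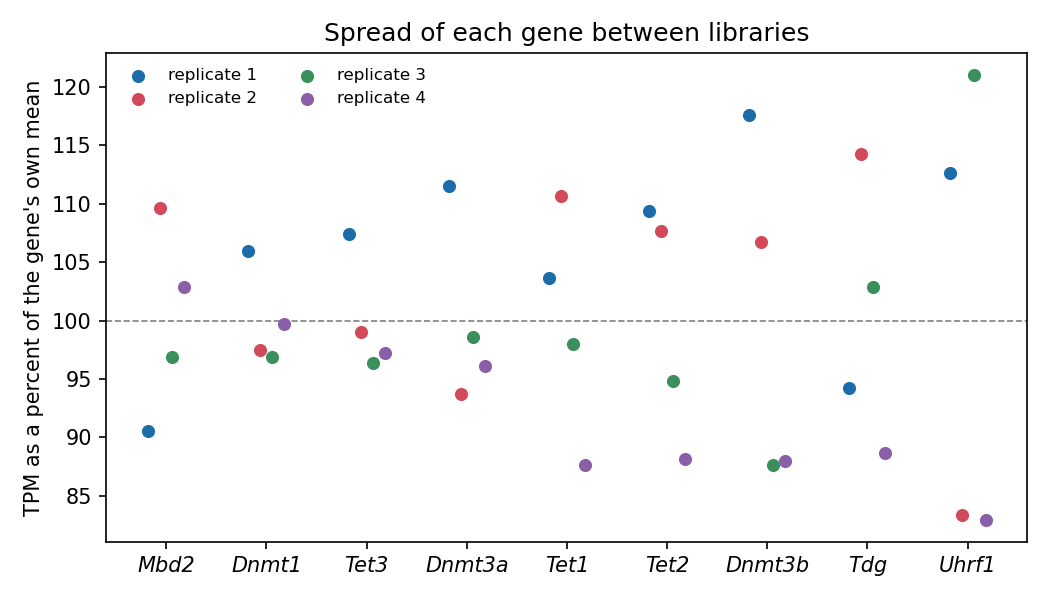
TPM in each library as a percent of the gene's own mean (vertical axis), for replicates 1 to 4 (points); the dashed line marks the mean. Uhrf1 is the widest, with replicates 1 and 3 above and replicates 2 and 4 below, and Dnmt1 the narrowest.

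Depth split the libraries into 2 pairs, so the members were also read by that split. The deeper and the shallower pair did not overlap in 3 of 9 members (33.3%), while 27.2% of genes at 1 TPM in all libraries showed such a split. Uhrf1 averaged 5.47 TPM in the deeper pair and 7.68 TPM in the shallower, Dnmt3a 26.9 and 29.8 TPM, and Mbd2 140.4 and 123.9 TPM. Mki67, a marker of dividing cells, stood at 1.98, 1.68, 2.55 and 1.503 TPM in replicates 1 to 4. Its libraries, like those of Il2ra, rank in the same order as those of Uhrf1. Of the 17 cell cycle genes, Mki67, Cdk1, Cdc6, Ccna2 and Ccnb1 share this order, and the others, Top2a and Rrm2 among them, do not. Among the partners of maintenance methylation listed below, Hells and Pclaf share it and the others do not. These genes were named for this after their values were seen, and how many of all genes share the order was not counted. Among the 13 cell cycle genes at 1 TPM in all libraries, 2 (Mki67 and Tyms, 15.4%) were lower in both deeper libraries, near the 13.8% of all such genes. Of the 4 below that level, Cdk1, Cdc6, Ccna2 and Ccnb1, each was also lower there, on 100 to 168 counts in all. The share among all genes below that level was not computed, so these 4 have no background to be set against. None of the 17 was called variable, and the part of dividing cells or depth in the values of Uhrf1 was not tested. The summed B cell markers were highest in replicate 1 and lowest in replicate 4, and their part in the high values of Dnmt3a and Dnmt3b in replicate 1 was not tested either.

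Genes that work with the 9 members were described through 10 lists holding 105 measured genes, of which 84 reached 1 TPM in all libraries. Among partners of maintenance methylation, 8 of 9 were detected. Usp7, which protects Dnmt1 and Uhrf1 from degradation, stood at 151.5 ± 10.8 TPM and Pcna, the replication clamp, at 123.5 ± 5.81 TPM. At the foot of that list lay Hells, a remodeller needed for methylation, at 2.99 ± 0.138 TPM, and the clamp-binding protein Pclaf at 0.548 ± 0.1898 TPM. Of the 17 replication and division genes, Pcna, Mcm2 to Mcm7 and Cdt1 exceeded 40 TPM in every library, with Pcna and Mcm4 (92.5 ± 5.39 TPM) highest. The other 9, the licensing factor Cdc6 (0.698 ± 0.321 TPM) among them, stayed under 7 TPM, and Cdk1 (0.628 ± 0.176 TPM) and Ccnb1 (0.534 ± 0.197 TPM) were lowest.

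The cofactor of the de novo enzymes was not detected. Dnmt3l, which stimulates Dnmt3a in germ cells, had 0 counts in every library, and 3 counts in a library equal at most 0.15 TPM. The other 8 genes of that list were detected, from Trim28 (290.6 ± 12.6 TPM) and the histone methyltransferase Ehmt2 (152 ± 11.7 TPM) to the RNA methyltransferase Trdmt1 (5.09 ± 0.931 TPM). All 7 genes listed as other methyl-CpG readers, with Mbd3 included as a relative of Mbd2, were detected. Mbd3 and Mbd1 (95.8 ± 4.72 TPM) were highest and Zbtb38 (11.4 ± 0.664 TPM) and Mbd4 lowest. All 12 subunits of the NuRD complex were present, at a median of 134 ± 7.35 TPM. Its remodelling ATPases Chd3 (583 ± 43.2 TPM) and Chd4 (352 ± 15.1 TPM) led, and Gatad2b (49.8 ± 2.21 TPM) and Mta3 (48.5 ± 1.15 TPM) were lowest.

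Base excision repair genes, which are other glycosylases and the enzymes that act after them, had 12 of 13 detected members at a median of 21.9 ± 0.508 TPM. Parp1 (89.8 ± 2.2 TPM) and the nuclease Apex1 (82.0 ± 2.3 TPM) led, and the glycosylases Neil2 (2.79 ± 0.389 TPM) and Neil3 (0.183 ± 0.0964 TPM) were lowest. Of the genes that supply or limit Tet cofactors, 8 of 9 were detected. Ogdh (206 ± 4.31 TPM) and Idh3b (133 ± 1.73 TPM), enzymes that use and make 2-oxoglutarate, were highest. The ascorbate carrier Slc23a2 was present at 33.8 ± 2.05 TPM and Slc23a1 had 0 counts, and its floor of 3 counts is 0.139 TPM. Idh1, the cytosolic enzyme that makes 2-oxoglutarate, stood at 8.37 ± 0.877 TPM.

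Tet partners had 6 of 7 measured members detected. The ligase adaptor Ddb1 (303 ± 12.3 TPM) and the glycosyltransferase Ogt (235 ± 18.2 TPM) led, Cxxc5 stood at 3.01 ± 0.463 TPM, and Cxxc4 had 0 counts (floor 0.0335 TPM). The methyl donor cycle had 13 of 14 members detected, led by Mat2a (156 ± 15.1 TPM), which makes S-adenosylmethionine, and Shmt2 (131 ± 15.02 TPM). The liver form Mat1a had 0 counts (floor 0.14 TPM), and the folate enzyme Shmt1 stood at 8.40 ± 0.789 TPM. Of 11 germline genes whose promoters are known to be methylated in somatic cells, none reached 1 TPM in all libraries and 9 had 0 counts, for example Tex11 and Mael, where floors of 3 counts reached at most 0.504 TPM (Dppa3). Ddx4 (0.163 ± 0.151 TPM) and Dazl (0.11 ± 0.0738 TPM) had 18 counts each over the 4 libraries. None of the genes tested in these 10 lists was called variable between libraries.

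**Figure D5:**
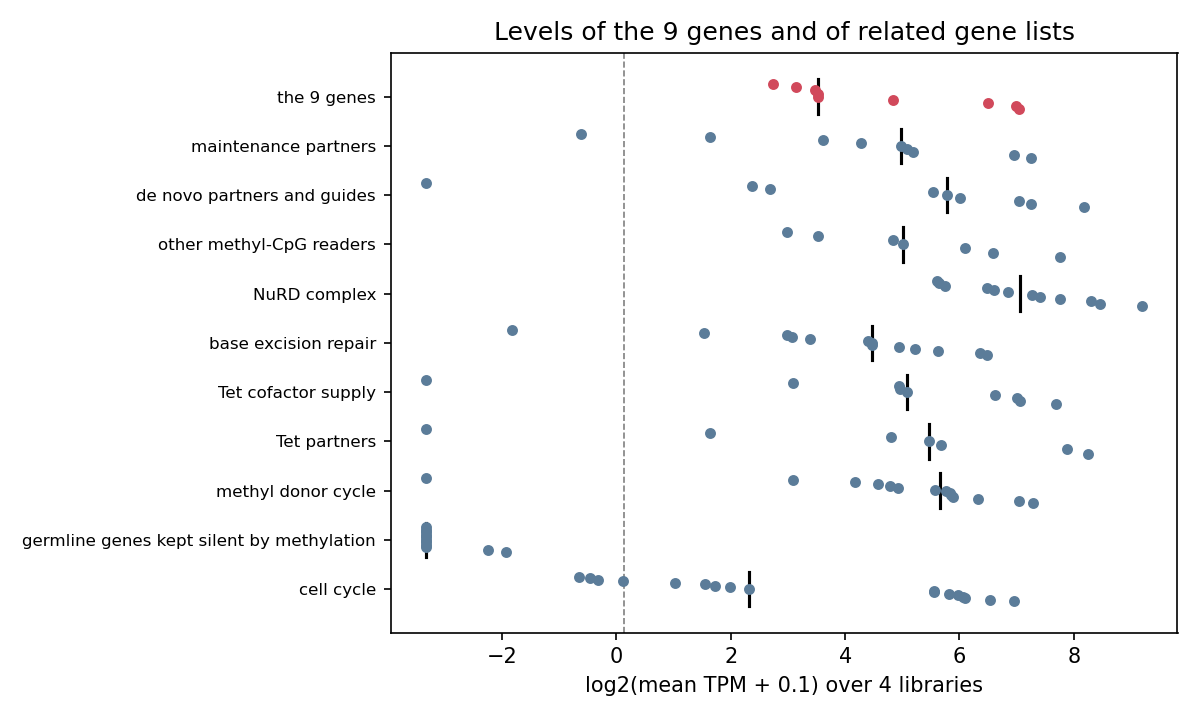
Mean level over 4 libraries as log2(TPM + 0.1) (horizontal axis) for the 9 genes and for each of the 10 related lists (vertical axis); points are genes, the bar is the list's median and the dashed line is 1 TPM. The NuRD list lies highest and 9 of 11 germline genes sit at 0 counts.

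Promoters of 8 of the 9 members were matched in the RefSeq table (GRCm38.p6, the assembly of mm10), from 250 bases before to 50 after each annotated start; Mbd2 was not matched. They have 13 annotated starts, of which 8 (61.5%) were CpG-rich, by GC content over 50% and a ratio of observed to expected CpG over 0.6, as were 33.3% of 32851 promoters. These were 2 of the 3 starts of Dnmt3a, 1 of 3 of Dnmt1, 1 of 2 of Uhrf1 and the single starts of Dnmt3b, Tet1, Tet2 and Tdg. The windows of those 2 starts of Dnmt3a overlap, so they are not separate. The background takes in promoters of genes not expressed here, whereas all members are expressed, so the shares do not set the members apart. The promoter of Tet2 held 57 CpG in 300 bases, more than 99.85% of promoters, and that of Tet3, with 22, missed the ratio at 0.577. Words that E2F factors of the cell cycle are known to bind (TTTCCCGC, TTTGGCGC or TTTCGCGC, on either strand) occurred in 1.84% of promoters. Among the members they occurred only at Dnmt1, with 2, and Uhrf1, with 1. These stretches are shown because both partners hold them; capitals mark the word, on the gene's strand, 5′ to 3′, and the word does not show that a factor binds there. They lie at chr9:20952824-20952853, chr9:20952574-20952603 and chr17:56304117-56304146 in that order:
Dnmt1, before the start: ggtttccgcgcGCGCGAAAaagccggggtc
Dnmt1, after the start: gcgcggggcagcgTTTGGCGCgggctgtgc
Uhrf1, before the start: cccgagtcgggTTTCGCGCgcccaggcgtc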

How the data were processed

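RNA of 4 mouse libraries was analysed from the deposited raw fragment counts. Per the file headers, the authors counted paired-end fragments over exons of GENCODE M13 genes with featureCounts 1.4.6-p4, both ends aligned and strand setting 2 (reverse-stranded), and set no option for fragments with several alignments or several genes. The labels call the assay total RNA-seq and cite a protocol titled for poly(A) libraries. No source used here gives the aligner's version. Symbols came from GENCODE M21 by identifier, for 50376 of 50600 genes. The exon length deposited in the count files gave TPM. Members and lists were chosen with earlier results of these data known. Of 1 list, the older symbol Vprbp was not matched (Dcaf1 is the same gene). Named genes are the 9 members and the 2 highest and 2 lowest genes of each list. Others were named after their values were seen. Of the lists, 2 are each described without 1 gene, which is not reported here.

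Ratios used log2(TPM + 0.1) and an exact two-sided sign-flip test (2 of 16 patterns at the extreme). Variability was tested over all genes with edgeR 4.0.16 (R 4.3.3; TMM, filterByExpr), and alternatives used DESeq2 1.42.0. The edgeR step was tested on simulated data. Alternatives were other scalings, lengths, filters and each library left out. Other values used Python 3.11.15, numpy 2.4.6, pandas 2.3.3 and matplotlib 3.10.9. A floor of 3 counts covers counting error only. Correlations over samples were not computed, since 4 libraries are fewer than 6.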

Additional observations from a re-analysis of the deposited data

Results flagged for a closer look

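Of 34 sets of 4 library values examined (levels, ratios and list medians), 1 held a library far from the other 3, and chance flags about 1 set in 20. The median of the Tet partner list, which is the level of Cul4b in every library, was 48.4 TPM in replicate 2 and 42.2 to 42.9 TPM in the others.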

How the results depend on the processing

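No paired analysis was possible because there is only 1 group. All 9 members were detected and 0 were called variable under every alternative run, including each library left out. The fold between the highest and the lowest member was 16.3 with exon length reduced by shared words and 18.5 to 21.8 with 1 library left out. In CPM, 8 of 8 neighbouring steps kept 1 sign against 5 in TPM, and the steps from Mbd2 to Dnmt1 (-1.14), Dnmt1 to Tet3 (-0.70) and Tet1 to Tet2 (-0.16; 0.16 as Tet2 over Tet1) turned, since no length correction is applied. With exon length reduced by shared words, an alternative added after the data were seen, Tet2 to Dnmt3b (-0.11) and Dnmt3b to Tdg (-0.72) turned, and Tdg over Mbd4 went from 0.14 to 1.36. Mbd2 over Mbd3 moved from -0.71 to -0.016 in CPM, Dnmt1 over Dnmt3a from 2.16 to 0.99 and Dnmt3a over Dnmt3b from 1.37 to 3.07. With 1 library left out, 5 to 7 steps and 6 to 7 of the 8 fixed pairs kept 1 sign, Mbd2 to Dnmt1 ran from -0.0023 to 0.13, Tet1 to Tet2 from -0.0082 to 0.033, and Tet2 over Tet1 from -0.033 to 0.0082. A TPM total of protein-coding genes alone raised member levels by up to 8.39%. Over all genes, 142 were called variable, against 88 with no count filter and 60 to 85 with 1 library left out. Leaving out bases shared with another gene on the same strand turned no ratio, and could turn none between members, since none of the 9 has such bases. The lowest counts per library were 226 for Uhrf1, 319 for Tdg and 328 for Dnmt3b.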
